A study of Rattus norvegicus with 9 samples.

Results

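Vascular endothelial growth factors (VEGFs), the angiopoietins and their receptors were followed in cultured rat pulmonary arterial smooth muscle cells. The genes were Vegfa, Vegfb, Vegfc and Pgf among the ligands, Flt1 and Kdr among the receptors, the co-receptors Nrp1 and Nrp2, and Angpt1 and Angpt2. They were taken as every non-control probe that carried one of these 10 names, in the file or through its annotated accession. The array held 15 such probes, among 41012 probes for 35069 named genes. A gene was tested where the scanner flagged its probe as well above background on every array of 1 or more groups, which held for 9 of the 10 genes and for 22106 genes in all. Angpt2 was the exception.

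Cells of generation 4 from male SD rats made up 3 groups of 3 samples: hypoxia with quercetin, hypoxia, and normoxia. Hypoxic cells were kept in an airtight chamber at 1% oxygen and 5% carbon dioxide, and normoxic cells in an ordinary incubator at 37 °C. Per the labels' protocols, cells were starved of serum for 24 h and then given quercetin, a plant flavonoid, or its vehicle (0.1% DMSO) in medium with 10% serum for 24 h. The dose of quercetin was not given in the sources used here. Nothing in the labels says whether samples of a group came from separate animals or cultures, so p-values measure the spread between these samples only. Each sample was hybridised to one 1-colour Agilent rat array, and the number of arrays limits the precision.

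VEGF ligands are dimeric secreted proteins that signal through receptor tyrosine kinases. VEGF-A binds FLT1 and KDR, and KDR carries most of its mitogenic signal in endothelium. Among these receptor kinases VEGF-B and placental growth factor (Pgf) bind FLT1 and not KDR, while VEGF-C acts mainly on FLT4 and KDR. Neuropilins are co-receptors shared with the class 3 semaphorins. Angiopoietin 1, made largely by mural cells such as smooth muscle, activates the endothelial receptor TEK, and angiopoietin 2 opposes it in many settings. VEGF-A, FLT1 and, in several cell types, placental growth factor are textbook targets of the hypoxia-inducible factors (HIFs).

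The probes decide what these data can say, and those of 3 genes with probes in different parts of the transcript are shown for that reason. Coordinates are in rat build rn4 as the deposited files give them. The main Vegfa probe lies on chr9:10528580-10528965 (plus strand), a span of 386 bases for a 60-base probe, so that it crosses at least 1 intron. The main Vegfb probe lies on chr1:209659244-209659672 (minus strand), over 429 bases. The main Flt1 probe lies on chr12:7924711-7941808 (plus strand), over 17098 bases. Capitals mark the longest stretch that the Vegfa and Vegfb probes share, 18 bases, and each probe is written 5′ to 3′.
Vegfa: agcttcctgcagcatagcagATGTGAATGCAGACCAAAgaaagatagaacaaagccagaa
Vegfb: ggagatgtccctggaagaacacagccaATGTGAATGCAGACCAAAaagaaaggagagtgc
Flt1: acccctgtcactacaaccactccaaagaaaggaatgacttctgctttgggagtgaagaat
The signals of the Vegfa and Vegfb probes moved in opposite directions in hypoxia, as given below with the values. Whether either probe also binds the other gene's transcript was not tested.

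HIFs bind a core written ACGTG or GCGTG. Both letter strings were searched on both strands of the 250 bases upstream of each annotated start in RefSeq's table of build GRCr8, and matches may share bases. Of the 10 genes, 8 had an entry and Vegfa had 2 starts. At least 1 match lay in 6 of their 9 windows (those of Vegfb, Pgf, Nrp1, Nrp2, Flt1 and Kdr) and in 36.7% of all 33469 such windows. The windows of Pgf and Flt1, the genes with the largest increases in hypoxia here, are shown 5′ to 3′ on the gene's strand with the match in capitals. That of Pgf is chr6:110557748-110557997 (minus strand) and that of Flt1 is chr12:12333180-12333429 (plus strand).
Pgf: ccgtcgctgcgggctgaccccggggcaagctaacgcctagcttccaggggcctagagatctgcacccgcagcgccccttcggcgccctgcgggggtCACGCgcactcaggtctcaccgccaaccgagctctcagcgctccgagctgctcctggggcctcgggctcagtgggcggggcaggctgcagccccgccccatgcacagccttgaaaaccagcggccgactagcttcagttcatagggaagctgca
Flt1: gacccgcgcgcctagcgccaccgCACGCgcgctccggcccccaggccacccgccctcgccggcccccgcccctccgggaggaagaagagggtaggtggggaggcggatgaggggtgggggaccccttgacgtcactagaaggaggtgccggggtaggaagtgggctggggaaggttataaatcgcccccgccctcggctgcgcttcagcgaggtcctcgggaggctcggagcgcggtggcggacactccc
In both windows the match reads CACGC, which is GCGTG on the opposite strand. Its first base lies 154 bases before the start of Pgf and 227 before that of Flt1. A match describes these letters only, and no match lay in the windows of Vegfa and Vegfc.

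All levels below are relative signals, meaning the deposited processed intensity divided by that array's 75th percentile over probes, so a value of 1 is that percentile. Levels of different probes are not comparable with each other. Changes are log2 differences of group means with their standard errors (SE), tested with limma across all 22106 genes, and adjusted p stands for the Benjamini-Hochberg value from that fit. Many genes passed, and every count below is to be read beside these shares of all genes. In hypoxia against normoxia 35.3% were higher and 28.9% lower, with quercetin against hypoxia 26.9% and 31.6%, and with quercetin against normoxia 23.0% and 21.3%. Arrays of 1 group correlated at 0.986 to 0.994. Normoxia arrays 1 and 2 lay on slide 1 and were scanned on the first day. Normoxia array 3 shared slide 2 with the 3 hypoxia arrays, and the 3 quercetin arrays filled slide 3. Since slide 3 held the quercetin arrays alone, slide and treatment cannot be told apart between quercetin and either other group. The fit with slide as a block takes hypoxia against normoxia from slide 2, with normoxia array 3 as its only normoxic array.

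The labelled cell type was checked against its markers. All 9 smooth muscle markers on the array (Myh11, Cnn1, Tagln, Des, Lmod1, Myocd, Smtn, Actg2 and Mylk) were well above background on all 9 arrays, and no probe bore the name Acta2. Their summed relative signal was 120 to 144 with quercetin, 379 to 401 in hypoxia and 169 to 296 in normoxia. Of the 9, 5 rose and none fell in hypoxia against normoxia, beside 35.3% and 28.9% of all genes. With quercetin against hypoxia none rose and 7 fell, beside 26.9% and 31.6%. With quercetin against normoxia 1 rose and 4 fell, beside 23.0% and 21.3%. The same shares apply to the marker counts that follow. Of 9 endothelial markers, Pecam1, Cldn5 and Emcn were well above background on no array, while Erg and Egfl7 were on all 9, Cdh5 on 8, Robo4 on 7, Esam on 5 and Vwf on 2. The summed relative signal of the endothelial markers ranged from 6.55 to 7.87 with quercetin, 10.1 to 10.9 in hypoxia and 8.997 to 10.71 in normoxia. The 4 tested did not move together: in hypoxia against normoxia Egfl7 rose (0.42) and Erg fell (-2.48). With quercetin against hypoxia Erg rose (0.97), and Cdh5 (-1.22) and Egfl7 (-0.60) fell. With quercetin against normoxia none rose and Erg fell (-1.51). Of 6 epithelial markers, Epcam, Cdh1 and Krt19 were well above background on no array, yet the list's sum was 7.37 to 8.98 with quercetin, 39.4 to 46.8 in hypoxia and 3.70 to 5.44 in normoxia, through the keratins Krt18, Krt7 and Krt8. The sum of 7 fibroblast markers was 14.1 to 14.9 with quercetin, 18.9 to 20.4 in hypoxia and 23.0 to 28.6 in normoxia. Of the 6 tested, none rose and 4 fell in hypoxia against normoxia (median -2.18), none rose and 4 fell with quercetin against hypoxia, and all 6 fell with quercetin against normoxia (median -3.43). Lum and Dcn, matrix proteoglycans of fibroblasts, changed by -3.62 and -4.24 in hypoxia against normoxia, with Dcn well above background on 2 of 3 hypoxia arrays. Dpt, which changed by -2.91, was well above background on 1 of 3 hypoxia arrays and on no quercetin array. Fap changed by -1.45, while Pdgfra (0.09) and Col14a1 (-0.26) did not pass. The sum of 7 leukocyte markers was 1.38 to 1.65 with quercetin, 1.89 to 2.08 in hypoxia and 1.19 to 1.51 in normoxia. Itgam and Cd3e were well above background on no array, while Cd68, Cd74 and Lyz2 were on all 9, Csf1r on 8 and Ptprc on 6. Of the 5 tested, 3 rose and none fell in hypoxia against normoxia, with Lyz2 higher by 4.10 (adjusted p = 3.4e-05). With quercetin against hypoxia 1 rose and 3 fell, and with quercetin against normoxia 2 rose and 1 fell. The part of other cells in the results below was not tested, and fewer cells of a type cannot be told apart from less RNA per cell.

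Of 8 genes induced by low oxygen in most cells, 7 rose in hypoxia against normoxia and none fell, including P4ha1, Car9 and Ankrd37. The exception was Adm, with a difference of 1.08 and an adjusted p of 0.080. Of all genes, 35.3% rose and 28.9% fell in hypoxia against normoxia. With quercetin against hypoxia none of the 8 rose and 4 fell, beside 26.9% and 31.6% of all genes. With quercetin against normoxia 3 rose and none fell, beside 23.0% and 21.3%. Normoxia array 2 stood apart from the other normoxic arrays: all 8 genes had their lowest level of all 9 arrays there. Ndrg1, one of them, stood at 9.27, 1.08 and 11.0 on the 3 normoxia arrays. Results for Vegfa are therefore given with and without that array.

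In hypoxia, 3 of the tested genes rose against normoxia (Pgf, Flt1 and Vegfa) and 5 fell (Nrp2, Angpt1, Vegfb, Nrp1 and Vegfc), while Kdr did not pass the test. That is 8 of 9, against 64.2% of all genes called in this comparison, 35.3% higher and 28.9% lower. The median change of the 9 genes was -1.15, against 0.10 over all genes. The arrays of the groups did not overlap for 8 of the 9, as for 71.7% of all genes. With slide as a block 7 of the 9 passed, all but Vegfa and Kdr, against 44.1% of all genes.

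**Figure D1:**
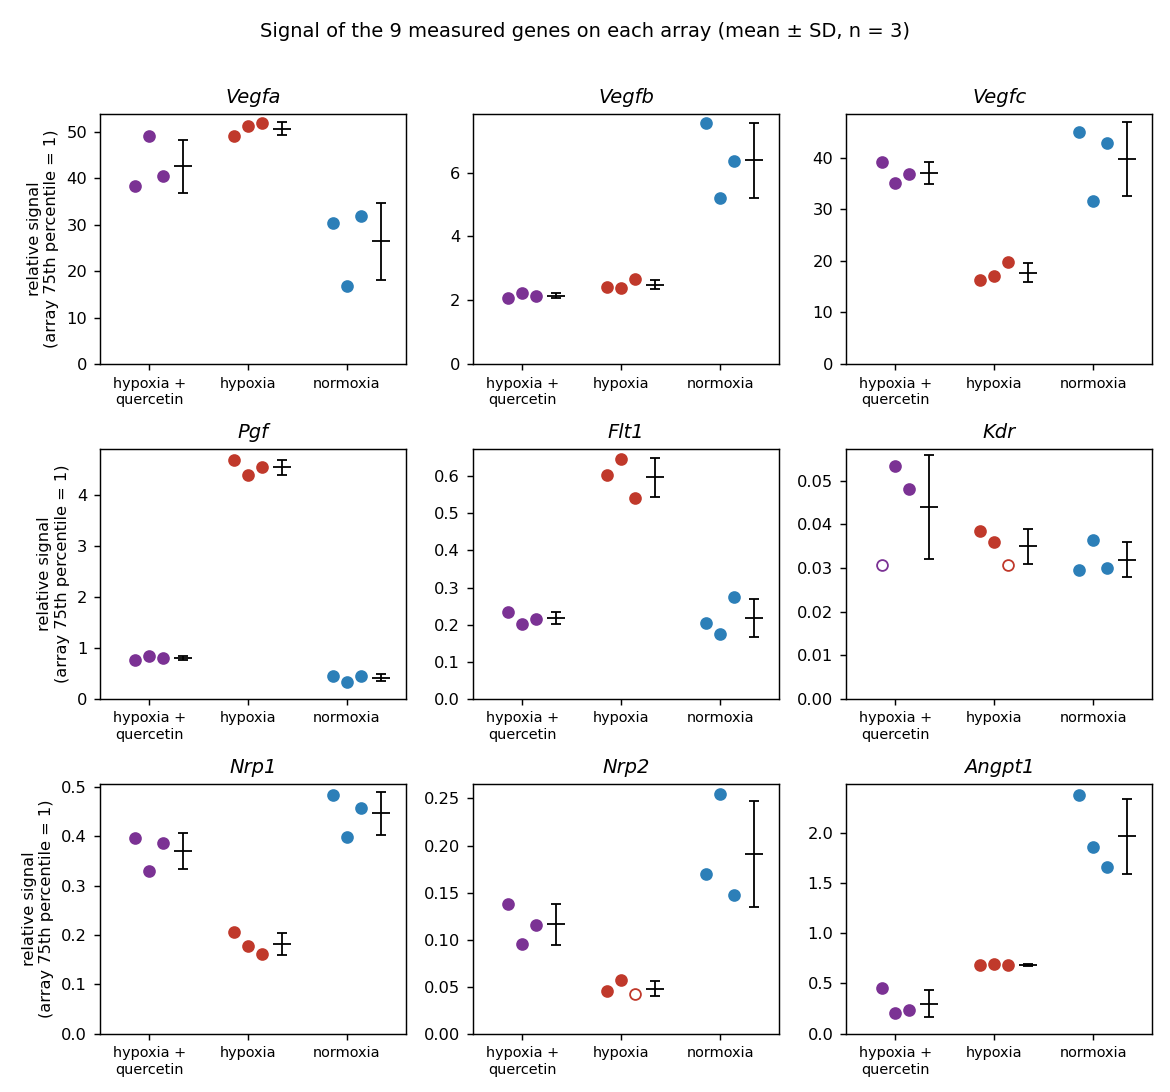
Relative signal (vertical axis, the array's 75th percentile = 1, linear and different in each panel) of the 9 measured genes on each array of hypoxia with quercetin, hypoxia and normoxia. Each point is 1 array, open where the probe was not well above background, and the black mark is the mean ± SD of 3 arrays. Pgf stood at 4.39 to 4.69 in hypoxia and below 1 on every other array.

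Pgf, a ligand of FLT1 and not of KDR, showed the largest change. Its relative signal was 4.69, 4.39 and 4.56 on the hypoxia arrays, against 0.457, 0.339 and 0.451 on the normoxia arrays. The groups lay far apart, with means of 4.55 ± 0.15 and 0.416 ± 0.066 (SD, n = 3 each). The change was 3.46 ± 0.12 (SE), or 11.0-fold, with an adjusted p of 1.4e-06 in limma. It ranked 39 among the 12085 genes with a positive change. With slide as a block it was 3.33, and with arrays scaled to the spiked-in control RNA it was 2.96, both past the test.

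Vegfa, the principal HIF-regulated angiogenic ligand, was bright in every sample. Its level was 49.1, 51.2 and 51.9 in hypoxia, against 30.5, 16.8 and 31.9 in normoxia. Every hypoxia array lay above every normoxia array, and normoxia array 2 was the lowest. The change was 1.00 ± 0.23 (adjusted p = 0.0055), a 2.00-fold increase, which became 0.70 (adjusted p = 0.0016) without normoxia array 2. Within slide 2 it was 0.67 with an adjusted p of 0.11, and under spike-in scaling it was 0.49 with an adjusted p of 0.070. The probe was printed on 10 spots of each array, whose log2 signals varied with an SD of 0.03 to 0.06, less than the spread between normoxia arrays. A second Vegfa probe, on chr9:10521744-10521803, changed by 0.91 (adjusted p = 0.012).

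Vegfb, the ligand tied to FLT1 and to fatty acid handling in muscle, went the other way. It read 2.42, 2.39 and 2.67 in hypoxia, against 7.57, 5.21 and 6.36 in normoxia. Levels in hypoxia were below 3 on each array and levels in normoxia above 5. The change was -1.34 ± 0.13 (adjusted p = 6.0e-05), 2.54-fold lower, and a second Vegfb probe changed by -0.94 (adjusted p = 0.00071). The within-array difference of the main and the second Vegfb probe was 0.53 ± 0.08 in hypoxia and 0.93 ± 0.08 in normoxia (log2, SD, n = 3 each), with no overlap.

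Vegfc, the lymphangiogenic ligand, had relative signals of 16.3, 17.1 and 19.7 in hypoxia, against 44.9, 31.5 and 42.8 in normoxia. It fell by 1.15 on the log2 scale (SE 0.15, adjusted p = 0.00022), with no overlap between the groups. Within slide 2 the change was -1.28, so the 4 ligands divided into Pgf and Vegfa, which rose, and Vegfb and Vegfc, which fell, with only Vegfa losing its call under the slide block and the spike-in scaling.

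Flt1, a high-affinity receptor that also acts as a trap for VEGF-A in its soluble form, was measured at 0.603, 0.648 and 0.543 in hypoxia, against 0.205, 0.174 and 0.275 in normoxia, by the probe shown above. Each hypoxia array was above each normoxia array. The change was 1.48 ± 0.16 (adjusted p = 0.00011), 2.78-fold, and 1.12 within slide 2 (adjusted p = 0.0015). The second Flt1 probe, nearer the 3′ end of the transcript on chr12:8035639-8035698, did not follow it. That probe read 0.082, 0.033 and 0.058 in hypoxia, against 0.056, 0.050 and 0.086 in normoxia, and only 1 of the 3 hypoxia arrays was well above background. Its change was -0.21 ± 0.32 (adjusted p = 0.60). The within-array difference of the main and the second Flt1 probe was 3.46 ± 0.74 in hypoxia and 1.78 ± 0.09 in normoxia (log2, SD, n = 3 each). The mean of both probes changed by 0.63 (adjusted p = 0.025), which includes the main probe's rise and is no separate check of it.

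**Figure D2:**
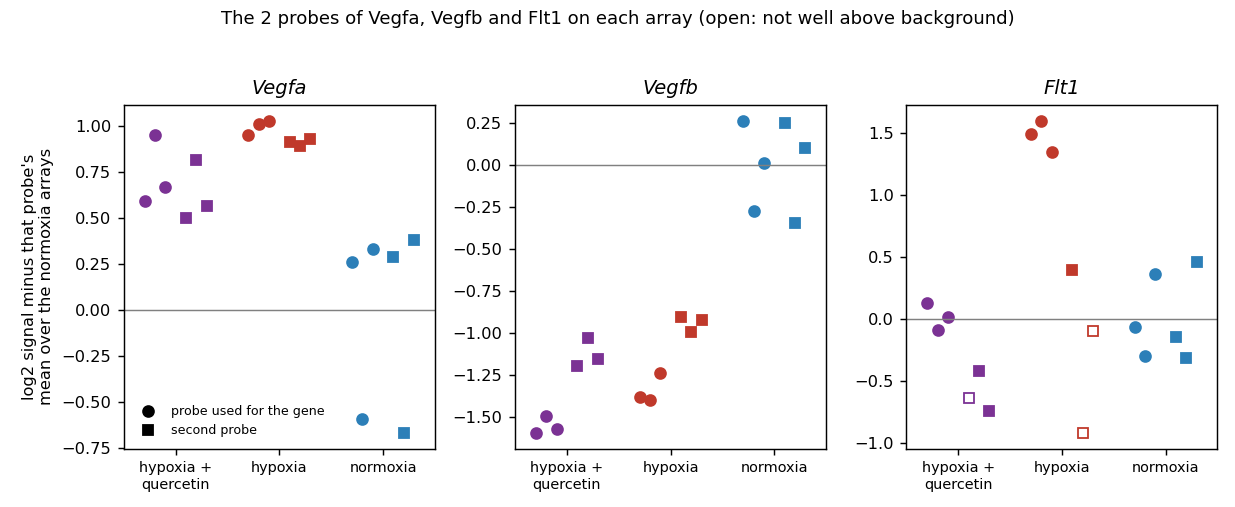
Log2 signal of the 2 probes of Vegfa, Vegfb and Flt1 on each array, minus the same probe's mean over the 3 normoxia arrays. Circles are the probe used for the gene, squares the second probe, and open symbols are not well above background. Both probes lie higher in hypoxia than in normoxia for Vegfa and lower for Vegfb, with changes of -1.34 and -0.94, and for Flt1 the main probe is 1.48 higher in hypoxia than in normoxia on average while the second is 0.21 lower.

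Kdr, the main signalling receptor of endothelium, was near the detection limit. It read 0.038, 0.036 and 0.031 in hypoxia, with 2 of 3 arrays well above background, against 0.029, 0.036 and 0.030 in normoxia. The groups overlapped, and the change of 0.13 ± 0.21 had an adjusted p of 0.60. Its sign turned under the spike-in scaling (-0.37) and with normexp background correction (-0.041), with no call in either.

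Both neuropilins fell. Nrp1, co-receptor for VEGF-A and semaphorin 3A, stood at 0.207, 0.178 and 0.162 in hypoxia, against 0.484, 0.398 and 0.458 in normoxia. Its highest hypoxia array was below its lowest normoxia array, and the change was -1.29 ± 0.13 (adjusted p = 5.7e-05).

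Nrp2, co-receptor for VEGF-C and semaphorin 3F, stood at 0.045, 0.057 and 0.042 in hypoxia, where 2 of 3 arrays were well above background, against 0.170, 0.255 and 0.148 in normoxia. The change was -1.96 ± 0.23 (adjusted p = 0.00014). Nrp2 was dim in hypoxia and its call depended on the background correction: with normexp the change was -0.77 (adjusted p = 0.097).

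Angpt1, the TEK agonist that smooth muscle supplies to endothelium, read 0.680, 0.692 and 0.680 in hypoxia, against 2.38, 1.85 and 1.65 in normoxia. The hypoxia arrays were almost equal and all below the normoxia arrays. The change was -1.50 ± 0.27 (adjusted p = 0.0016), 2.84-fold lower, and -1.27 within slide 2 (adjusted p = 0.034). The file places only 6 bases of this probe on rn4, at chr7:78195504-78195509. Angpt2 was covered by 3 probes, all not well above background on every hypoxia and normoxia array. Their relative signals there lay between 0.0022 and 0.019, so no change can be given. With quercetin 1 of the 3 probes was well above background on array 1 alone, at 0.105.

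Adding quercetin under hypoxia was compared with hypoxia alone, the comparison named in the study's title. Vegfc, Nrp1 and Nrp2 were higher with quercetin, and Pgf, Flt1 and Angpt1 were lower. These are 6 of the 9 tested genes, against 58.4% of all genes called, 26.9% higher and 31.6% lower. Vegfa, Vegfb and Kdr did not pass. The median change of the 9 genes was -0.21, against -0.08 over all genes. For 7 of the 9 the groups did not overlap, as for 71.1% of all genes. Since the quercetin and hypoxia arrays lay on different slides, slide and quercetin cannot be told apart in any of these values.

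**Figure D3:**
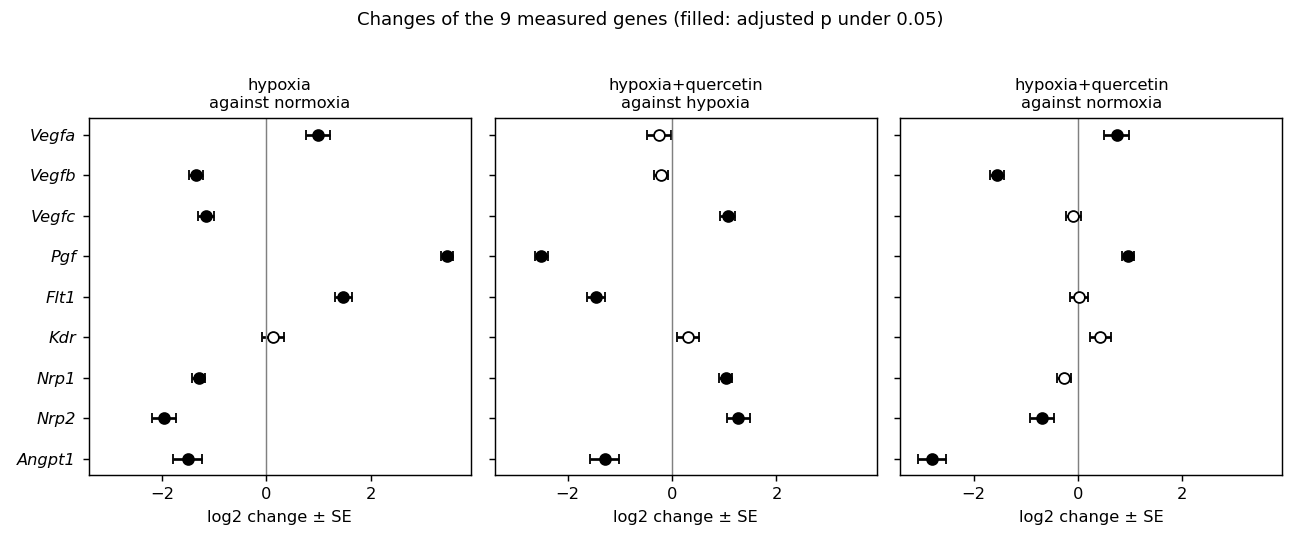
Log2 change ± SE (horizontal axis) of the 9 measured genes in the 3 comparisons, from 1 limma fit over 9 arrays with 3 per group. Filled points had an adjusted p under 0.05. Hypoxia against normoxia shows 3 increases and 5 decreases, hypoxia with quercetin against hypoxia 3 and 3, and hypoxia with quercetin against normoxia 2 and 3.

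Pgf was 0.770, 0.834 and 0.798 with quercetin, against 4.69, 4.39 and 4.56 in hypoxia. The 3 quercetin arrays averaged 0.801 ± 0.032 (SD, n = 3), far below the hypoxia arrays. The change was -2.51 ± 0.12 (adjusted p = 4.1e-06), 5.68-fold lower.

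Flt1 was 0.234, 0.202 and 0.216 with quercetin, against 0.603, 0.648 and 0.543 in hypoxia, by its main probe. All quercetin arrays were below all hypoxia arrays. The change was -1.46 ± 0.16 (adjusted p = 0.00014). The second Flt1 probe changed by -0.39 ± 0.32 (adjusted p = 0.33), with 2 of 3 quercetin arrays well above background. The difference of the main and the second Flt1 probe was 2.39 ± 0.24 with quercetin and 3.46 ± 0.74 in hypoxia (log2, SD, n = 3 each).

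Vegfa was 38.3, 49.2 and 40.4 with quercetin, against 49.1, 51.2 and 51.9 in hypoxia. Quercetin array 2 lay within the range of the hypoxia arrays and arrays 1 and 3 below it. The change of -0.26 ± 0.23 did not pass (adjusted p = 0.36). Without normoxia array 2, whose value also enters the spread of the fit, it was -0.26 ± 0.10 (adjusted p = 0.061). The second Vegfa probe changed by -0.28 ± 0.25 (adjusted p = 0.36), with no overlap between the groups. For the main probe the change was 0.09 after quantile normalization and 0.09 in the authors' value table, so its sign is not settled. Vegfb was 2.08, 2.24 and 2.12 with quercetin, against 2.42, 2.39 and 2.67 in hypoxia. Its groups did not overlap, but the change of -0.21 ± 0.13 had an adjusted p of 0.20. Fitted on these 2 groups alone, the same change had an adjusted p of 0.048.

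Vegfc stood at 39.2, 35.0 and 36.9 with quercetin, against 16.3, 17.1 and 19.7 in hypoxia. Every quercetin array was above every hypoxia array, and the change was 1.07 ± 0.15 (adjusted p = 0.00041), 2.10-fold.

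Nrp1 stood at 0.397, 0.329 and 0.387 with quercetin, against 0.207, 0.178 and 0.162 in hypoxia, a change of 1.03 ± 0.13 (adjusted p = 0.00025). Nrp2 stood at 0.138, 0.095 and 0.115 with quercetin, against 0.045, 0.057 and 0.042 in hypoxia. Its change was 1.27 ± 0.23 (adjusted p = 0.0017), and 0.72 with normexp (adjusted p = 0.12). The ligand Vegfc and the neuropilins were thus the members that were higher with quercetin, with no overlap between groups for any of them.

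Angpt1 was 0.451, 0.208 and 0.232 with quercetin, against 0.680, 0.692 and 0.680 in hypoxia. Quercetin array 1 was the highest of its group and still below all hypoxia arrays. The change was -1.29 ± 0.27 (adjusted p = 0.0039). Kdr was 0.031, 0.053 and 0.048 with quercetin, against 0.038, 0.036 and 0.031 in hypoxia, and its change of 0.30 ± 0.21 had an adjusted p of 0.25. Quercetin array 1, not well above background for Kdr, set that result: without it the change was 0.54 with an adjusted p of 0.017.

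Hypoxia with quercetin was also set against normoxia. Both comparisons with quercetin share its arrays, and both with normoxia share those, so the values are given side by side only. Pgf and Vegfa were higher with quercetin under hypoxia than in normoxia, and Angpt1, Vegfb and Nrp2 were lower. These are 5 of the 9 tested genes, against 44.3% of all genes called, 23.0% higher and 21.3% lower. Vegfc, Flt1, Nrp1 and Kdr did not pass. The median change of the 9 genes was -0.09, against 0.04 over all genes. The groups did not overlap for 6 of the 9, as for 53.6% of all genes. With slide as a random block 5 of the 9 genes passed, against 41.8% of all genes. No slide held arrays of both groups, so this setting cannot separate slide from quercetin.

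Pgf, at 0.770, 0.834 and 0.798 with quercetin against 0.457, 0.339 and 0.451 in normoxia, was higher by 0.96 ± 0.12 (adjusted p = 0.00047), 1.94-fold. No quercetin array overlapped a normoxia array. With scan day as a block 3 of the 9 genes passed (Pgf, Vegfb and Angpt1), against 26.3% of all genes. Taken from the second scan day alone in this way, with normoxia array 3 as its only normoxic array, the change was 0.83 (adjusted p = 0.012).

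Angpt1 differed most, at 0.451, 0.208 and 0.232 with quercetin against 2.38, 1.85 and 1.65 in normoxia. The change was -2.80 ± 0.27 (adjusted p = 0.00012), 6.94-fold lower, and it ranked 163 among the 10357 genes with a negative change. Its changes in the other comparisons, -1.50 in hypoxia against normoxia and -1.29 with quercetin against hypoxia, rest in part on the same arrays.

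Vegfb was 2.94-fold lower with quercetin than in normoxia, with a change of -1.56 ± 0.13 (adjusted p = 6.7e-05), and -1.57 on the second scan day alone. Vegfa was higher by 0.74 ± 0.23 (adjusted p = 0.030), at 38.3, 49.2 and 40.4 with quercetin against 30.5, 16.8 and 31.9 in normoxia. On the second scan day alone, which sets slide 3 against the 1 normoxia array on slide 2, the Vegfa change was 0.41 (adjusted p = 0.35), and without normoxia array 2 it was 0.44 (adjusted p = 0.018). The second Vegfa probe changed by 0.63 and did not pass (adjusted p = 0.073), nor did the main probe under spike-in scaling (0.33, adjusted p = 0.22). Nrp2 was lower by a change of -0.69 ± 0.23 (adjusted p = 0.037), which did not pass on the second scan day alone (-0.36, adjusted p = 0.40) or without normoxia array 2 (-0.46, adjusted p = 0.089). Nrp2 also lost its call without normoxia array 1 (adjusted p = 0.062), hypoxia array 1 (0.055), quercetin array 2 (0.11) or quercetin array 3 (0.087). Vegfa lost its call without quercetin array 2 (0.63, adjusted p = 0.093) or quercetin array 3 (0.77, adjusted p = 0.065).

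Vegfc differed by -0.09 ± 0.15 (adjusted p = 0.66), Flt1 by 0.02 ± 0.16 (adjusted p = 0.94), Nrp1 by -0.27 ± 0.13 (adjusted p = 0.13) and Kdr by 0.43 ± 0.21 (adjusted p = 0.13). These values do not show that the levels were equal. The second Flt1 probe changed by -0.60 ± 0.32 (adjusted p = 0.17) with no overlap between the groups. It was well above background on 2 of 3 quercetin arrays. Without quercetin array 1 the Kdr change was 0.67 with an adjusted p of 0.0098. All 3 quercetin arrays of Nrp1 lay below the normoxia arrays.

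**Figure D4:**
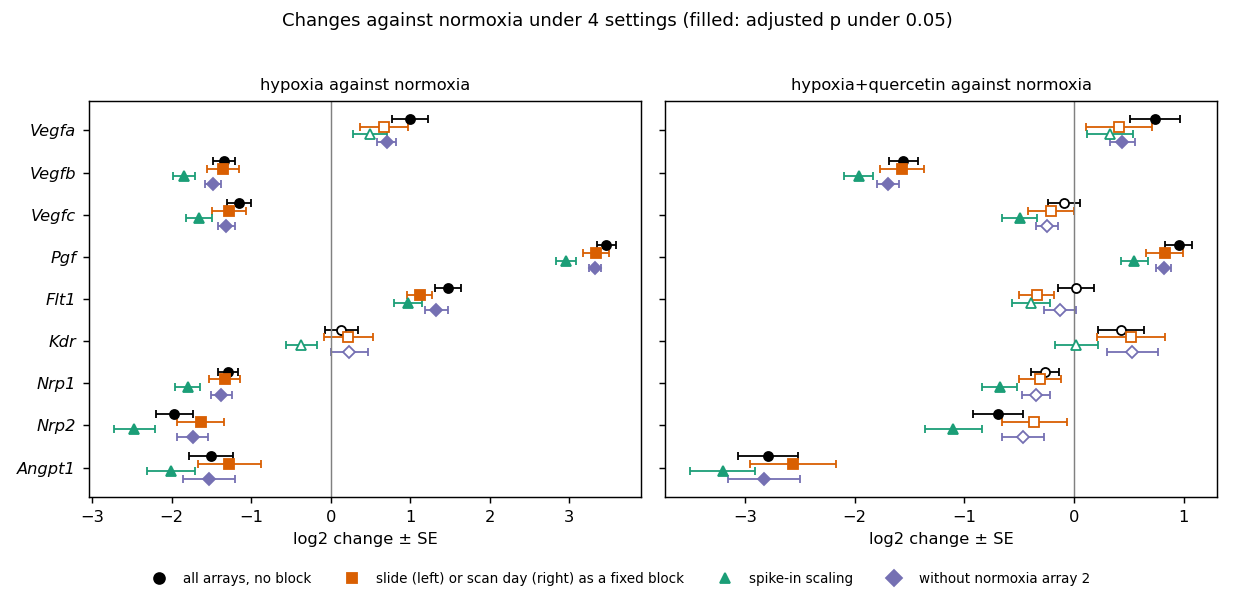
Log2 change ± SE of the 9 measured genes against normoxia (left, hypoxia; right, hypoxia with quercetin) over all arrays, with slide (left) or scan day (right) as a fixed block, with spike-in scaling, and without normoxia array 2. Filled symbols had an adjusted p under 0.05. Spike-in scaling moves every gene to the left, and Vegfa keeps its call in hypoxia without normoxia array 2 (0.70) but not with the slide block (0.67).

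The scale between arrays matters for these changes. With arrays scaled to spiked-in control RNA, the median change of all genes was -0.40 in hypoxia and -0.37 with quercetin, each against normoxia, where the 75th percentile scaling gave 0.10 and 0.04. It was 0.02 for quercetin against hypoxia. Of all genes, 2664 were then called higher and 10762 lower in hypoxia against normoxia, in place of 7802 and 6392, and 1640 and 9835 with quercetin against normoxia, in place of 5085 and 4709. In hypoxia against normoxia 7 of the 9 genes passed on that scale, against 60.7% of all genes, with quercetin against hypoxia 6, against 54.7%, and with quercetin against normoxia 6, against 51.9%. Under that scaling Pgf and Flt1 still rose in hypoxia (2.96 and 0.97), Vegfb, Vegfc, Nrp1, Nrp2 and Angpt1 still fell (-1.66 to -2.47), and Vegfa no longer passed. Against normoxia, Vegfc (-0.50, adjusted p = 0.029) and Nrp1 (-0.68, adjusted p = 0.0069) then also passed as lower with quercetin, Vegfa lost its call (0.33), and Flt1, which did not pass on either scale, turned negative (-0.39).

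By the pattern over all 9 arrays, the genes most like Vegfa among 11778 other named genes were Hapstr1 (Pearson r = 0.997), Slc2a1 (0.994), Ero1a (0.993), Kansl3 (0.991) and Dmxl2 (0.991). Slc2a1 encodes the glucose transporter GLUT1 and Ero1a an oxidase of the endoplasmic reticulum. These correlations describe 9 arrays of 3 groups, which share the group differences and the low value on normoxia array 2.

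Other members of the family were read from a fixed list of 10. Of these, 5 were tested, and Flt4, Tek, Tie1 and Angpt4 were well above background on no array. The Vegfc receptor Flt4 and the Angpt1 receptor Tek were therefore not measurable here. In hypoxia against normoxia 3 of 5 rose and none fell, beside 35.3% and 28.9% of all genes, with a median change of 1.02 against 0.10 over all genes. Vegfd, a ligand of FLT4, was 0.380, 0.348 and 0.340 in hypoxia, against 0.159, 0.194 and 0.124 in normoxia, a change of 1.18 ± 0.19 (adjusted p = 0.00089). With quercetin Vegfd was 0.586, 0.422 and 0.619, higher than hypoxia by 0.59 (adjusted p = 0.028) and than normoxia by 1.77 (adjusted p = 0.00021).

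With quercetin against hypoxia 1 of the 5 rose and 1 fell, beside 26.9% and 31.6% of all genes. With quercetin against normoxia 2 rose and 1 fell, beside 23.0% and 21.3%. Angptl2, a secreted angiopoietin-like protein, was 3.03, 2.46 and 2.92 in hypoxia, against 0.522, 0.605 and 0.648 in normoxia (change 2.24, adjusted p = 6.5e-06). With quercetin it was 0.811, 0.626 and 0.765, lower than hypoxia by a change of -1.94 (adjusted p = 1.6e-05). Ptprb, the phosphatase that restrains TEK in endothelium, rose by 1.02 in hypoxia (adjusted p = 0.019) and was higher with quercetin than in normoxia by 1.31 (adjusted p = 0.0094). Its normoxia arrays read 0.359, 0.180 and 0.493, with array 2 the lowest. Angptl4, a HIF target in many cells, differed by -0.79 in hypoxia (adjusted p = 0.24). With quercetin against normoxia Angptl4 was the gene that fell, by a change of -1.67 (adjusted p = 0.039). Its level on normoxia array 2 was 1.03, against 0.301 and 0.165 on the other normoxia arrays.

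Semaphorins and plexins, which share the neuropilins, gave 9 tested genes. In hypoxia against normoxia 1 rose and 4 fell, where 35.3% of all genes rose and 28.9% fell, with a median of -0.26. With quercetin against hypoxia 2 rose and 2 fell, beside 26.9% and 31.6% of all genes. With quercetin against normoxia none rose and 5 fell (median -0.51), beside 23.0% and 21.3%. These counts include Sema3a and Plxna2, which are limited by background as given below. Sema3e, the ligand of plexin D1, changed by -1.99 ± 0.12 in hypoxia (adjusted p = 6.5e-06) and by 0.98 with quercetin against hypoxia (adjusted p = 0.00025). It was dim, with means of 0.051 in hypoxia, 0.100 with quercetin and 0.202 in normoxia. Only 2 of 3 hypoxia arrays and 2 of 3 quercetin arrays were well above background for Sema3e. Sema3c, a neuropilin ligand, changed by -1.17 in hypoxia (adjusted p = 7.9e-05). Sema3a, the classical NRP1 ligand, was well above background on all 3 normoxia arrays and on no hypoxia or quercetin array. It passed the filter only through normoxia, so its adjusted p is not given. Its signal in hypoxia was at least 3.62-fold lower than in normoxia, where the mean was 0.153 with an SD of 0.102.

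Plxna2, a signalling partner of the neuropilins, was likewise not well above background in hypoxia by its main probe, at least 2.99-fold below normoxia. Its other probes changed by -1.39 (adjusted p = 0.015) and 0.53 (adjusted p = 0.34), so its probes disagree. These bounds divide the brighter group's mean by the dimmer group's, with each dim array held at no less than its lowest signal well above background.

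**Figure D5:**
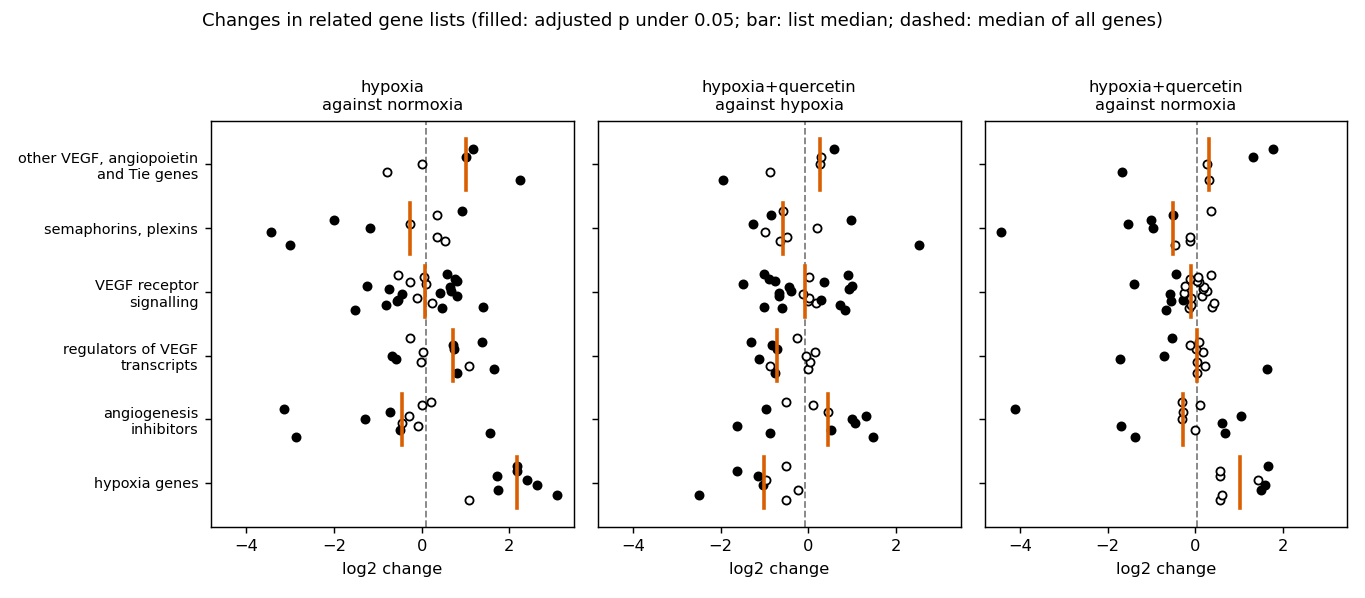
Log2 change (horizontal axis) of each tested gene in 6 lists of related genes, for the 3 comparisons. Filled points had an adjusted p under 0.05, orange bars are list medians and dashed lines the median of all genes; fitted values of Sema3a and Plxna2 rest on groups at background. The hypoxia genes lie to the right in hypoxia against normoxia (median 2.17), and VEGF receptor signalling is centred near 0 (median 0.08).

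Of 22 tested genes of VEGF receptor signalling, 9 rose and 7 fell in hypoxia against normoxia (median 0.08), where 64.2% of all genes were called. Between quercetin and hypoxia 7 rose and 10 fell with quercetin (median -0.07), where 58.4% of all genes were called. With quercetin against normoxia none rose and 6 fell, where 44.3% of all genes were called. In hypoxia Ppp3ca, a catalytic subunit of calcineurin, changed by -1.24 ± 0.09 (adjusted p = 1.4e-05), Akt1 by -1.51 ± 0.15 (adjusted p = 6.1e-05) and the kinase Mapk3 by 0.81 ± 0.09 (adjusted p = 0.00014). With quercetin against hypoxia the tyrosine kinase Src changed by -1.01 ± 0.09 (adjusted p = 4.5e-05), Pik3r1, a regulatory subunit of PI3-kinase, by 0.92 (adjusted p = 7.6e-05) and Ppp3ca by 1.00 (adjusted p = 4.7e-05). Prkca, a protein kinase C downstream of phospholipase C gamma, was lower with quercetin than in normoxia by a change of -1.40 (adjusted p = 0.00043).

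Regulators of VEGF transcripts gave 11 tested genes, of which 5 rose and 2 fell in hypoxia, where 35.3% of all genes rose and 28.9% fell. Zfp36, which binds AU-rich elements and destabilises transcripts such as VEGF-A, rose by 1.38 (adjusted p = 6.5e-05), and Arnt, the HIF beta subunit, by 0.81 (adjusted p = 0.00029). Hif1a fell by 0.67 on the log2 scale (adjusted p = 0.0014). With quercetin against hypoxia none rose and 5 fell, beside 26.9% and 31.6% of all genes. Among those that fell were Zfp36 (-1.30, adjusted p = 0.00011), Arnt (-0.77, adjusted p = 0.00045) and Epas1, the HIF-2 alpha subunit (-1.14, adjusted p = 0.00050). With quercetin against normoxia 1 rose and 3 fell, beside 23.0% and 21.3%. Epas1 was lower by a change of -1.72 (adjusted p = 0.00010) and Hif1a by one of -0.72 (adjusted p = 0.0017), and Egln1, an oxygen-sensing prolyl hydroxylase, was higher by 1.64 (adjusted p = 0.012).

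Of 11 tested angiogenesis inhibitors, 1 rose and 5 fell in hypoxia against normoxia, where 35.3% of all genes rose and 28.9% fell, with a median of -0.45. Thbs2, thrombospondin 2, changed by -3.14 ± 0.22 (adjusted p = 1.2e-05) by its main probe and by -1.02 by a second one (adjusted p = 0.00031). Adamts1, a protease that binds VEGF-A, changed by -2.86 ± 0.25 (adjusted p = 2.8e-05). Col18a1, the precursor of endostatin, rose by 1.57 ± 0.12 (adjusted p = 1.4e-05). With quercetin against hypoxia 5 rose and 3 fell, beside 26.9% and 31.6% of all genes. Serpinf1, pigment epithelium-derived factor, changed by -1.62 ± 0.10 (adjusted p = 8.6e-06), and Spry4, an inhibitor of receptor tyrosine kinase signalling, by 1.32 (adjusted p = 7.2e-05), although a second Spry4 probe changed by 0.08 (adjusted p = 0.73). Col18a1 changed by -0.88 with quercetin against hypoxia (adjusted p = 0.00032), and Adamts1 was higher by 1.48 (adjusted p = 0.0011). With quercetin against normoxia 3 inhibitors rose and 3 fell, beside 23.0% and 21.3% of all genes.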

How the data were processed

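RNA from 9 samples was measured on 1-colour Agilent rat arrays. Per the file headers, spots were quantified with Feature Extraction 10.7.3.1, and the deposited intensity has a fitted spatial background surface subtracted. A second deposited table holds the authors' log2 values, with a median of 5.71 in each column. Its making was not given in the sources used here, and it served as an alternative. The labels name a microRNA labelling kit, while the arrays hold messenger RNA probes.

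Control spots (1639 per array) and 71 to 148 outlier spots per array were left out, and no spot was saturated. Log2 intensities were averaged by probe, and each array's 75th percentile over probes was subtracted. A probe was kept if flagged well above background on every array of 1 or more groups, as were 26653 of 41012 (65.0%), and each gene was taken from its brightest kept probe. Probe names came from accessions for 18028 probes, symbols for 3168 and synonyms for 400 in RefSeq's gene table, and 19416 kept the file's name. One limma fit (limma 3.58.1, R 4.3.3) of group means over 9 arrays was tested two-sided, with a Benjamini-Hochberg adjusted p under 0.05 as the threshold. The fit was also run on simulated data with known changes and no slide or scan day effects, so that run does not bear on those effects. Same-numbered samples did not deviate together, with correlations of -0.27 to 0.02, so replicate numbers were not used as pairs.

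The genes and lists were chosen with earlier results of these data known. The text names all members and, per list and comparison, genes drawn from the 4 with the smallest adjusted p, not always all 4. Adm, Ndrg1 and the drawing within the 4 were chosen after their values were seen.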

Additional observations from a re-analysis of the deposited data

How the results depend on the processing

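The alternatives were normexp background correction, quantile, median and spike-in scaling, a stricter and no filter on dim probes, other ways to combine probes, the authors' value table, a fit of 2 groups only, a replicate block, slide or scan day as a block, and each array left out. Of 561 values of the tested members under these alternatives, 520 kept direction and side of the threshold, 22 lost their call, 5 gained one and 14 changed sign. Each change of sign was of a change that had not passed. The causes were not tested.

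With normexp, all genes called numbered 6724 in hypoxia against normoxia, 6166 with quercetin against hypoxia and 3171 with quercetin against normoxia. They numbered 5818 in the last comparison with scan day as a block. Members called with quercetin against normoxia were 3, in place of 5, with normexp, without a filter, with 2 groups only, with scan day as a block and with the replicate block, whose numbers did not pair the samples. In each of these Vegfa and Nrp2 lost their call. All genes called there numbered 8066 without a filter, 8226 with 2 groups only and 8513 with the replicate block, in place of 9794. Leaving out 1 array each gave 3 to 6, with 3 without quercetin array 2 or 3. The replicate block changed no other member's call.

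Kdr in hypoxia against normoxia turned to -0.041 with normexp and -0.37 with spike-in scaling. Vegfa with quercetin against hypoxia turned to 0.087 after quantile normalization and 0.086 in the authors' table. Flt1 with quercetin against normoxia turned to -0.013 after quantile normalization and in the authors' table (-0.013), -0.046 after median scaling, -0.39 after spike-in scaling, -0.29 as the mean of its probes and -0.34 with scan day as a block. Leaving out 1 array each, Flt1 there ranged over -0.13 to 0.20 and Vegfc over -0.25 to 0.0099. Angptl4 in hypoxia against normoxia turned to 0.38 with slide as a block, and Angptl2 with quercetin against normoxia to -0.10 after spike-in scaling.

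The planned within-array difference of Angpt2 and Angpt1 was not run, since no Angpt2 probe passed the filter. Dim signals limit Kdr, Nrp2 in hypoxia and the second Flt1 probe, and 3 arrays per group limit every comparison.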
